A study of Mus musculus with 8 samples.

Results

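Transcripts of isoforms that set the rate of glycolysis were compared between hearts of 4 WT and 4 ARE-/- male mice. The genes were taken by name from the authors' deposited table of ARE-/- against WT. The rule named Pfkfb1, Pfkfb3, Pfkp, Pdk1, Hk1, Hk2, Hk3 and Pkm, and 6 of these 8 genes were among the 4820 genes in the table. Hk2 and Pkm were not listed, and no direction is known for them here. A gene entered the table where the authors' test (DESeq2) gave an adjusted p under 0.05, and these genes were 24.6% of the 19606 genes that the adjustment implies were tested. All 6 genes had therefore to differ in order to be described, and their count carries no weight.

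All mice were C57B6/J males, age matched at 20 to 25 weeks, and differed by genotype, WT or ARE-/-. ARE is not written out in the labels and is taken here as the AU-rich element of the interferon gamma gene Ifng, whose loss prolongs the life of that transcript. The labels name no driver or cell type that would limit the change to the heart. Each library was made from total RNA of a heart, read from both ends, and was taken as 1 mouse. The deposited counts, FPKM and gene lengths imply totals of 13416171 to 19432098 reads or read pairs per library. Where libraries of a group were repeats of a single RNA, the p-values would be too small. Ifng reads numbered 0, 3, 0 and 1 in the WT libraries and 103, 37, 27 and 61 in the ARE-/- libraries, in order of replicate number, and the groups did not overlap. ARE-/- replicate 1 stood apart from its group, with a median absolute log2 distance of 0.45 from the other 3 libraries over the more highly expressed genes, against 0.15 to 0.19 for those 3. In WT the same distance was 0.21 for replicate 3 and 0.096 to 0.12 for the others. Of 12 cardiomyocyte markers 8 were listed and none of them was at 0 in any library.

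Glycolysis splits glucose to pyruvate, and phosphofructokinase 1 catalyses its committed step. The strongest activator of that enzyme is fructose 2,6-bisphosphate, which is made and destroyed by the bifunctional PFKFB enzymes. Hexokinases trap glucose at the entry of the pathway, and pyruvate dehydrogenase kinases (PDK) close its mitochondrial exit by inhibiting pyruvate dehydrogenase. The adult heart burns mainly fatty acids and holds muscle and heart isoforms of these enzymes, whereas activated immune cells and dividing cells are known for PFKFB3, the platelet-type phosphofructokinase PFKP and, in myeloid cells, hexokinase 3.

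The 6 listed genes moved in different directions, 4 up and 2 down in ARE-/- hearts. Of all genes tested, 12.8% rose and 11.8% fell, so 52.1% of the listed genes had risen. In refits with other scalings, shares were taken only over the listed genes that passed. Of these, 42.1% of 3922 had risen with trimmed mean scaling, 35.9% of 3602 in a DESeq2 refit and 70.7% of 3429 with library totals. In counts scaled by the authors' size factors, the groups did not overlap in 5 of the 6 genes. Among all listed genes 81.5% did not overlap, so the members' share is close to the background.

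The promoters of the PFKFB pair that moved in opposite directions, Pfkfb1 and Pfkfb3, and of Pdk1, a known target of hypoxia-inducible factor 1 (HIF-1) that fell, are shown first. Each covers 300 bases from RefSeq (GRCm38.p6), on the strand of the gene, 250 before the start site and 50 from it on. Of the RefSeq start sites of a gene the one nearest the start of the deposited gene was taken. Capitals mark the core of the HIF-1 element, ACGTG or GCGTG, searched on both strands, and the E-box CACGTG, which overlaps it.
Pfkfb1, chrX:150587993-150588292, forward strand: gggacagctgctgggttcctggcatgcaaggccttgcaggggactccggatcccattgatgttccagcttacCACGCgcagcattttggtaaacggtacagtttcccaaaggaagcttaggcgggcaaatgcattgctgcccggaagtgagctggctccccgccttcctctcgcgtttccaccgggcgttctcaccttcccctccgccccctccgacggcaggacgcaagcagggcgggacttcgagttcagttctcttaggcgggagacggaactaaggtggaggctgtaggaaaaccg
Pfkfb3, chr2:11502041-11502340, reverse strand: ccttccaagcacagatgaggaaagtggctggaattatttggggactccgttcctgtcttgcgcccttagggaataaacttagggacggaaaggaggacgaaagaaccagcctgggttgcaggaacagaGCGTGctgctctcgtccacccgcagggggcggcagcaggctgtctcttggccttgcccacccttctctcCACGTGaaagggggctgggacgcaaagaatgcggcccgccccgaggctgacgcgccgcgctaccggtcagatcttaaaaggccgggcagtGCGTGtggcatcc
Pdk1, chr2:71872974-71873273, forward strand: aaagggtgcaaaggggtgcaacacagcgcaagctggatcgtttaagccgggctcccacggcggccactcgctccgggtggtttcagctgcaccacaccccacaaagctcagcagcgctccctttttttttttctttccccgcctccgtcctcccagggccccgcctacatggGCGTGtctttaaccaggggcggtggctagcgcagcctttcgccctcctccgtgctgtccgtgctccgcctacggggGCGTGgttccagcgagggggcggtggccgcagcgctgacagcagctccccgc

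The Pfkfb1 window held 1 match of the core, the Pdk1 window 2 and the Pfkfb3 window 4. A pair of the Pfkfb3 matches came from both strands of a single E-box, 53 bases before the start site. Pfkp had 4 matches in the same window, Hk3 had 1 and Hk1 had 0. At least 1 match was present in 43.8% of 32817 promoters of this length, and an E-box in 7.15%, so matches of the core are common. The interferon gamma activated sequence TTCNNNGAA and the interferon regulatory factor motif, a pair of GAAA with 2 bases between, were found in none of the 6 windows, against 8.29% and 3.43% of all promoters. Pdk1, with 2 core matches, fell and Hk1, with none, rose, and a relation of matches to direction was not tested. A single start site was searched per gene, of 4 in RefSeq for Pfkfb1 and 2 each for Pfkfb3, Pdk1 and Hk1.

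Pfkfb1, the isoform of liver and skeletal muscle, fell in ARE-/- hearts. The gene (ENSMUSG00000025271) occupies bases 150588229 to 150643878 of chromosome X (mm10, forward strand). Its libraries held 165, 148, 189 and 164 reads in WT and 36, 18, 37 and 29 in ARE-/-, in order of replicate number. Counts divided by the authors' size factors, inferred here from the deposited group means, are called normalised counts. For Pfkfb1 they were 198, 177, 183 and 169 in WT and 29.4, 20.1, 32.5 and 23.2 in ARE-/-. Every ARE-/- library lay far below every WT library, and the spread within each group was narrow. The mean fell from 182 ± 12.5 to 26.3 ± 5.64 (SD over 4 mice). Its log2 difference, taken as ARE-/- minus WT between group means of log2(normalised count + 0.5), was -2.79 ± 0.16 (SE), and the authors' deposited table gives an adjusted p of 3.13e-31 (DESeq2). In whole tissue, fewer cells of a type and less RNA per cell cannot be told apart. Pfkfb1 ranked 31 among the falls of the table by the authors' fold change. The gene overlaps Apex2 on the opposite strand by 1640 bases (GENCODE M21), and the use of strand by the authors' counter is not given.

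Pfkfb3, the inducible isoform with the highest kinase activity of the family, rose. The gene (ENSMUSG00000026773) is on the reverse strand of chromosome 2, from 11471430 to 11502101 in mm10. Its reads numbered 110, 72, 151 and 120 in WT and 512, 412, 521 and 629 in ARE-/-. Normalised counts were 132, 86.2, 146 and 123 in WT and 419, 461, 457 and 504 in ARE-/-, so the lowest ARE-/- library was well above the highest WT library. The mean went from 122 ± 25.7 to 460 ± 34.9 (SD over 4 mice per group), which is a log2 difference of 1.94 ± 0.17 (SE). The adjusted p in the authors' deposited table is 3.68e-21 (DESeq2).

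All 4 genes of the Pfkfb family were listed, and they parted into pairs. Pfkfb2, the heart isoform, had 367 to 404 normalised counts in WT and 169 to 251 in ARE-/-, a log2 difference of -0.97 ± 0.14 (SE). Pfkfb4, known from testis and hypoxic cells, had 58.6 to 74.0 in WT and 122 to 195 in ARE-/-, a log2 difference of 1.31 ± 0.18 (SE). Groups did not overlap in either gene.

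Per length, the sums of the family overlapped between the groups while the shares of its members did not. The deposited FPKM, fragments scaled to transcript length and library size, of the 4 genes summed to 10.8 to 12.1 in WT libraries and 12.1 to 14.5 in ARE-/- libraries. Pfkfb1 and Pfkfb2 held 34.2% ± 1.70 and 43.8% ± 2.28 of that sum in WT, and 5.04% ± 1.101 and 22.96% ± 4.84 in ARE-/- (SD over 4 mice per group). Pfkfb3 and Pfkfb4 held 12.1% ± 2.27 and 9.99% ± 0.93 in WT, and 46.5% ± 2.49 and 25.5% ± 4.21 in ARE-/-. The ratio of Pfkfb3 to Pfkfb1 FPKM was 0.257 to 0.422 in WT libraries and 7.44 to 12.1 in ARE-/- libraries. The order of these genes was thus the same in all 4 libraries of a group for this pair and reversed between groups. These shares and ratios describe genes chosen with their differences known and were given no test.

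**Figure D1:**
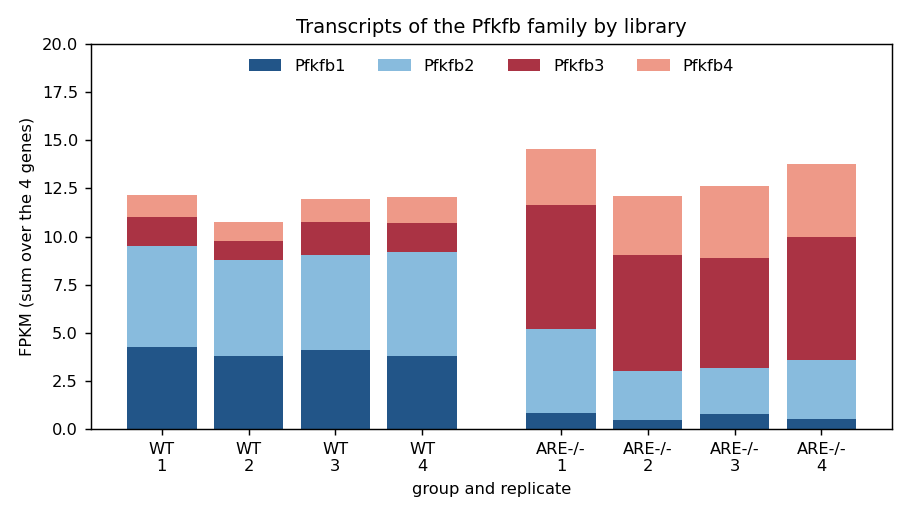
FPKM of Pfkfb1, Pfkfb2, Pfkfb3 and Pfkfb4, stacked for each of the 8 libraries, so that the bar height is their sum. Blue segments (Pfkfb1, Pfkfb2) make up most of each WT bar and red segments (Pfkfb3, Pfkfb4) most of each ARE-/- bar, while the sums stay between 10.8 and 14.5.

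Pfkp, the platelet-type isoform of phosphofructokinase 1, rose, and the muscle and liver isoforms Pfkm and Pfkl were not listed. Pfkp (ENSMUSG00000021196) lies on the reverse strand of chromosome 13, from 6579768 to 6648777 in mm10. Normalised counts were 622, 541, 576 and 606 in WT and 1643, 1381, 1285 and 1304 in ARE-/-. The highest value was that of ARE-/- replicate 1, and the other 3 ARE-/- libraries also lay above all WT libraries. The mean rose from 586 ± 35.9 to 1403 ± 165 (SD over 4 mice per group), which is a log2 difference of 1.25 ± 0.093 (SE) with an adjusted p of 1.89e-17 in the authors' deposited table (DESeq2). It overlaps Pitrm1 on the opposite strand by 748 bases, and Pitrm1 was listed with a log2 difference of -0.42.

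Hk3, the hexokinase of granulocytes and macrophages, had the largest difference of the 6 genes. The gene (ENSMUSG00000025877) is on the reverse strand of chromosome 13, from 55005985 to 55021385 in mm10. Its reads numbered 24, 25, 40 and 21 in WT and 479, 508, 617 and 736 in ARE-/-. Normalised counts were 28.8, 29.9, 38.7 and 21.6 in WT and 392, 568, 542 and 590 in ARE-/-, with ARE-/- replicate 1 lowest of its group. The mean went from 29.8 ± 7.03 to 523 ± 89.7 (SD over 4 mice per group), which is a log2 difference of 4.12 ± 0.22 (SE). The adjusted p in the authors' deposited table is 7.19e-60 (DESeq2), and by fold change it ranked 51 among the rises of the table.

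Hk1, the hexokinase of most tissues and of red cells, was above all WT hearts in 3 of 4 ARE-/- hearts by normalised counts. By FPKM all 4 ARE-/- hearts lay above the WT range, so the overlap depended on scaling. The gene (ENSMUSG00000037012) is on the reverse strand of chromosome 10, from 62268855 to 62379908 in mm10. Normalised counts were 1328, 1148, 1048 and 1435 in WT and 1253, 3491, 3575 and 3708 in ARE-/-. ARE-/- replicate 1 fell within the WT range, and the other 3 libraries were far above it and close together. The mean was 1240 ± 174 in WT and 3007 ± 1172 in ARE-/- (SD over 4 mice per group), which is a log2 difference of 1.16 ± 0.39 (SE). The authors' deposited table gives an adjusted p of 3.79e-04 (DESeq2), while an exact two-sided permutation test over the 8 libraries gave p = 0.0857. For each of the other 5 genes that test gave 0.0286, the smallest p that 4 against 4 libraries allow. Without ARE-/- replicate 1 the log2 difference was 1.53 (edgeR refit, adjusted p = 4.59e-07). With offsets that remove the trend of expression with transcript GC content it was 0.65 and no longer passed (edgeR, adjusted p = 0.0665, range over the 20 alternatives 1.54e-19 to 0.103). These GC offsets were fitted in each library on the more highly expressed listed genes, without regard to genotype. Any difference between the groups that varies with GC is removed too, and cannot be told apart from a technical trend.

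The antisense gene Hk1os overlaps Hk1 by 23112 bases and was not listed, and without the counter's strand setting their reads cannot be told apart. Per length, Hk3 FPKM was 0.407 to 0.725 in WT and 9.49 to 11.8 in ARE-/-, and Hk1 FPKM was 14.8 to 20.4 in WT and 22.9 to 55.7 in ARE-/-. Hk1 thus stayed above Hk3 in every library, but the ratio of Hk1 to Hk3 FPKM went from 20.4 to 50.02 in WT libraries to 2.41 to 4.97 in ARE-/- libraries.

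**Figure D2:**
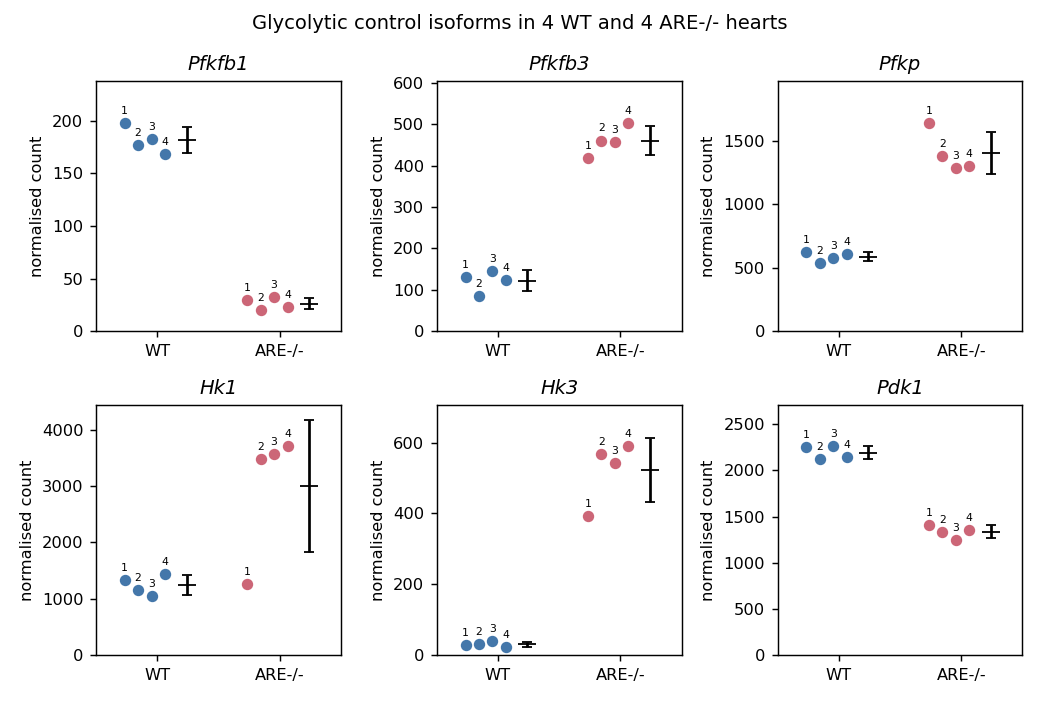
Normalised counts of the 6 listed isoforms in the 8 libraries, with each point labelled by its replicate number and the bar at the right of each group giving mean ± SD (n = 4). Groups are apart in Pfkfb1, Pfkfb3, Pfkp, Hk3 and Pdk1, while Hk1 of ARE-/- replicate 1, at 1253, lies among the WT values of 1048 to 1435.

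Pdk1, a pyruvate dehydrogenase kinase that is abundant in heart, fell. The gene (ENSMUSG00000006494) occupies bases 71873224 to 71903858 of chromosome 2 (mm10, forward strand). Normalised counts were 2251, 2118, 2260 and 2143 in WT and 1413, 1332, 1250 and 1352 in ARE-/-. All ARE-/- libraries lay below all WT libraries, with little spread in either group. The mean fell from 2193 ± 72.9 to 1337 ± 67.1 (SD over 4 mice per group), which is a log2 difference of -0.71 ± 0.044 (SE) and the smallest of the 6 genes in size. The adjusted p in the authors' deposited table is 2.59e-10 (DESeq2). With GC offsets the difference was -0.30 and did not pass (edgeR, adjusted p = 0.0686), and adding a replicate block gave -0.30 (adjusted p = 0.206, the largest of the 20 alternatives, whose smallest was 1.52e-18).

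Other kinases of the family went in both directions. Pdk4, the fasting-induced kinase of muscle and heart, was the most abundant of the listed kinases and went from 3051 ± 71.1 to 1788 ± 104 normalised counts (SD over 4 mice per group), which is a log2 difference of -0.77 ± 0.046 (SE). Pdk3 rose by 1.01 ± 0.26 (SE) from 29.9 to 60.0 normalised counts in WT to 68.3 to 111 in ARE-/-, and did not pass in the DESeq2 refit (0.68, adjusted p = 0.118). Per length, Pdk4 FPKM was 1.97 to 2.14 times that of Pdk1 in WT libraries and 1.72 to 2.20 times in ARE-/- libraries, ranges that overlap. The ratio of Pdk1 to Pdk3 FPKM was 15.4 to 28.9 in WT and 5.18 to 7.96 in ARE-/-. Pdk2 was not listed. Like Pdk1, Pdk4 did not pass with GC offsets (-0.29, edgeR, adjusted p = 0.288).

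Ordered by FPKM, the genes stood as Pdk1, Hk1, Pfkp, Pfkfb1, Pfkfb3 and Hk3 in WT hearts, and no neighbours in that order overlapped between libraries. Mean FPKM ran from 25.0 ± 1.18 for Pdk1 to 0.547 ± 0.132 for Hk3 (SD, n = 4). In ARE-/- hearts the order was Hk1, Pfkp, Pdk1, Hk3, Pfkfb3 and Pfkfb1. There the range of Hk1 (46.5 ± 15.8) overlapped that of Pfkp (20.7 ± 4.64), and that of Pfkp overlapped that of Pdk1 (17.6 ± 2.56). Within each ARE-/- library, however, Pfkp lay above Pdk1 (27.5 against 21.3, 19.7 against 17.1, 17.5 against 15.3 and 18.0 against 16.7). Hk1 lay below Pfkp in ARE-/- replicate 1 (22.9 against 27.5) and above it in the other ARE-/- libraries. Hk1, at 22.9 FPKM or more, lay above Pdk1, at 21.3 or less, in all ARE-/- libraries. Pfkfb1 was last at 0.671 ± 0.170 FPKM.

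Around these genes, 47 of 143 genes on lists of glucose metabolism were listed, against 24.6% of all genes tested. Of these 47, 24 had risen and 23 fallen, with a median log2 difference of 0.41 against 0.44 over all listed genes. Without the 6 isoforms, 20 of 41 rose. In refits with GC offsets 13 risen and 10 fallen genes passed (edgeR), and 14 risen genes passed without WT replicate 2, without WT replicate 4 or without ARE-/- replicate 3. Differences between the lists were not tested. On the list of pentose phosphate and hexosamine branches 4 of 13 genes were listed, against 24.6% of all genes tested, and all 4 rose. Among them were G6pdx, which opens the pentose phosphate pathway (1.51 ± 0.22, SE), Pgd (1.30 ± 0.20) and Tkt (1.102 ± 0.175). Of 25 glycogen genes 7 were listed, a share near the 24.6% of all genes tested, and 6 of the 7 fell. Among the falls were 3 subunits of phosphorylase kinase, Phkb (-0.90 ± 0.16), Phka1 (-0.73 ± 0.098) and Phkg1 (-0.81 ± 0.31), while the subunit Phkg2 rose. Of 15 carriers 4 were listed, also near that share. The glucose carriers Slc2a6 (2.02 ± 0.23) and Slc2a1 (0.91 ± 0.26) and the lactate exporter Slc16a3 (1.07 ± 0.13) rose, and Slc2a12 fell (-1.67 ± 0.14). Groups overlapped for Slc2a1 in normalised counts, but not in FPKM (2.93 to 4.71 in WT and 5.87 to 9.26 in ARE-/-). With GC offsets Phkg1 (-0.63), Slc16a3 (0.51) and Slc2a1 (0.48) did not pass (edgeR, adjusted p = 0.165, 0.0902 and 0.170). In the DESeq2 refit Rpia, the fourth of the branch genes, was at 0.065 (adjusted p = 1), and Phkg2 (0.39, adjusted p = 0.273) and Slc2a1 (0.56, adjusted p = 0.108) did not pass.

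Of 20 enzymes of lower glycolysis 5 were listed, 3 risen and 2 fallen, a share near the 24.6% of all genes tested. Ldhb, the heart lactate dehydrogenase subunit, fell (-0.88 ± 0.21), whereas Aldoc (1.16 ± 0.26), Pgam1 (0.85 ± 0.17) and Eno1 (0.82 ± 0.17) rose. With GC offsets Eno1 was at 0.24 (edgeR, adjusted p = 0.154) and Aldoc at 1.03 (adjusted p = 0.0587), neither past the threshold, and Aldoc did not pass in the DESeq2 refit either (adjusted p = 0.168). Fbp2, the muscle fructose bisphosphatase, went from 506, 485, 397 and 442 normalised counts in WT to 71.1, 151, 149 and 121 in ARE-/-, a log2 difference of -1.94 ± 0.26 (SE). At the entry of pyruvate into mitochondria 5 of 8 genes were listed, against 24.6% of all genes tested. Of these 5, Dld, Pdha1, Mpc2 and Pdhx fell, and Pcx rose with overlapping groups. None of these 5 passed with GC offsets, where Dld was at -0.18, Pdha1 at -0.21, Mpc2 at -0.019, Pdhx at -0.032 and Pcx at 0.47 (edgeR, adjusted p = 0.358 to 1). On the HIF list 3 of 16 genes were listed, Car9 risen and Epas1 and Vegfa fallen, and Car9 did not pass with GC offsets (1.29, edgeR, adjusted p = 0.148).

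Isoforms were also sorted by the tissue they are known for. Of 13 isoforms of proliferating or immune cells 10 were listed, and all 10 rose (median log2 difference 1.16), among them Hk3, Pfkfb3, Pfkfb4 and Pfkp. Of 16 isoforms of heart, muscle or liver 6 were listed, of which 5 fell and 1 rose (median -0.92), with Pfkfb1, Pfkfb2, Pdk4 and Ldhb among the falls. Of all genes tested 24.6% were listed, and of all listed genes 52.1% rose and 47.9% fell. With GC offsets 7 of the 10 and 4 of the 6 still passed in the same direction (edgeR). Pdk1 and Hk1 were placed in neither class. The classes were drawn up with earlier results of these data known and are no independent support.

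**Figure D3:**
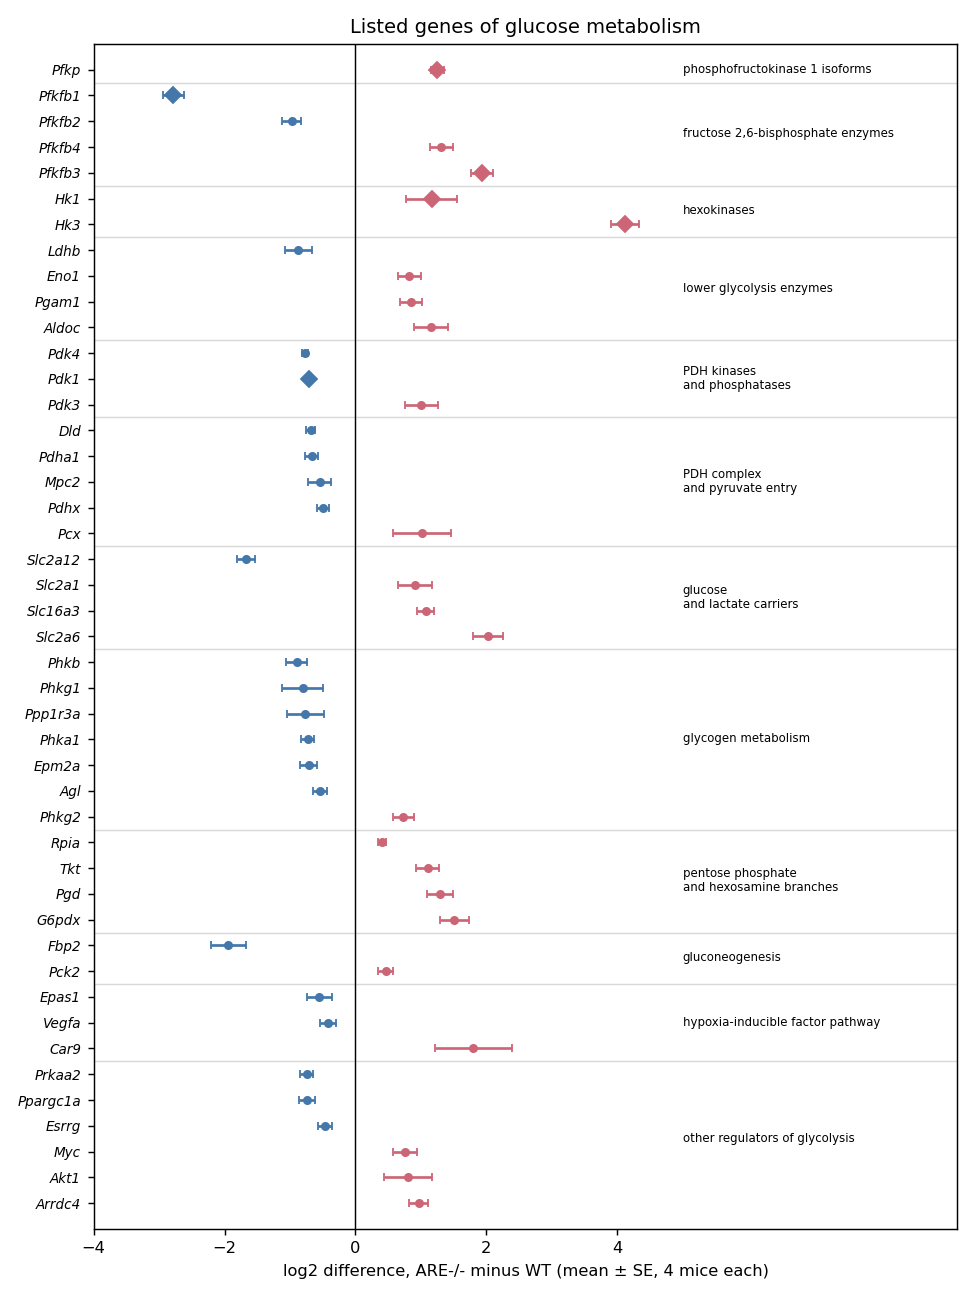
Log2 differences (ARE-/- minus WT, mean of 4 mice ± SE) of 45 of the 47 listed genes of glucose metabolism, grouped by list, with the 6 isoforms as diamonds. Rises are red and falls blue, the extremes shown being Hk3 at 4.12 and Pfkfb1 at -2.79.

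In the authors' deposited table of Gene Ontology terms, the glycolytic process holds 27 listed genes (adjusted p = 0.00354), 15 risen and 12 fallen, with Pfkp, Hk1 and Hk3 among them. The term for pyruvate metabolism in the authors' deposited table holds 39 genes, 19 risen and 20 fallen (adjusted p = 1.84e-04), including those 3 and Pdk1.

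Markers of other cells moved with these genes. Of 12 macrophage and monocyte markers 9 were listed, against 24.6% of all genes tested, and all 9 rose. Their summed FPKM was 354 to 577 in WT and 2264 to 3776 in ARE-/-, highest in ARE-/- replicate 1, where normalised counts of Pfkp were also highest and those of Hk3 lowest of the ARE-/- group. T cell and NK cell markers were listed in 9 of 12 cases, all risen, with summed FPKM of 6.86 to 16.02 in WT and 77.6 to 128 in ARE-/-. Neutrophil markers were listed in 5 of 8 cases, against the same 24.6%, and all fell. Their summed FPKM was 3.79 to 8.95 in WT and 0.389 to 1.30 in ARE-/-, with up to 4 of the 5 at 0 in an ARE-/- library. Proliferation markers rose in 6 of 7 listed cases of 8, from sums of 29.0 to 38.5 to sums of 57.5 to 96.3 FPKM. The part of these cells in the rises of Hk3, Pfkfb3 and Pfkp was not tested.

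Of 12 cardiomyocyte markers 8 were listed, against 24.6% of all genes tested. Of these 8, 7 fell and 1 rose, and the summed FPKM of the 8 was 33058 to 44478 in WT and 22568 to 29590 in ARE-/-. Red cell markers were listed in 7 of 8 cases, against 24.6% of all genes tested, and all fell. Their sum was 60522 to 71148 FPKM in WT, 45944 in ARE-/- replicate 1 and 10446 to 11579 in the other 3 ARE-/- libraries, the same library that stood apart in Hk1. None of 8 hepatocyte markers was listed. Fibroblast markers rose in 3 listed cases of 8 (summed FPKM 34.7 to 46.9 in WT and 68.6 to 98.5 in ARE-/-). Adipocyte markers were listed in 5 of 8 cases, of which 4 rose and 1 fell. Endothelial markers were listed in 2 of 8 cases, near the 24.6% of all genes tested, and both fell. The summed FPKM of the endothelial markers was 41.2 to 57.9 in WT and 36.3 to 42.3 in ARE-/-, ranges that overlap. The part of these changes in the falls of Pfkfb1 and Pdk1 was not tested.

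Genes with the most similar profiles were sought among 3137 listed genes with a mean of at least 100 normalised counts, by Pearson correlation of log2 values over the 8 libraries. Pfkfb1 was closest to Asb5, Ppm1k and Txlnb (r = 0.998, 0.998 and 0.996), all fallen. Pfkfb3 was closest to Myo1f, Adap1 and Arhgap9 (r = 0.996, 0.995 and 0.994), and Hk3 to Efhd2, Arrb2 and Cyba (r = 0.999, 0.999 and 0.998), all risen. For Pfkp these were Parp14, Ctsb and Trim21 (r = 0.997, 0.997 and 0.995), for Hk1 Pef1, Exosc5 and Cdk5rap3 (r = 0.997, 0.997 and 0.996), and for Pdk1 Il15, Abcd3 and Ttn (r = 0.996, 0.995 and 0.994). Such values are common here, since all listed genes differ between the same groups, and 207 to 498 genes exceeded 0.95 with each isoform.

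The size of the differences was recomputed under 20 alternatives. Pfkfb1 ran from -3.11 to -2.34, Pfkfb3 from 1.57 to 2.11, Pfkp from 0.93 to 1.55 and Hk3 from 3.54 to 4.41, and these 4 kept their direction and their call under all 20. Pdk1 ran from -1.05 to -0.30 and Hk1 from 0.61 to 1.53, with 18 of 20 calls kept. Relative to the authors' size factors, trimmed mean scaling shifted log2 differences by a median of -0.13, library totals by 0.20 and the DESeq2 refit by -0.34. No isoform changed direction under these scalings.

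**Figure D4:**
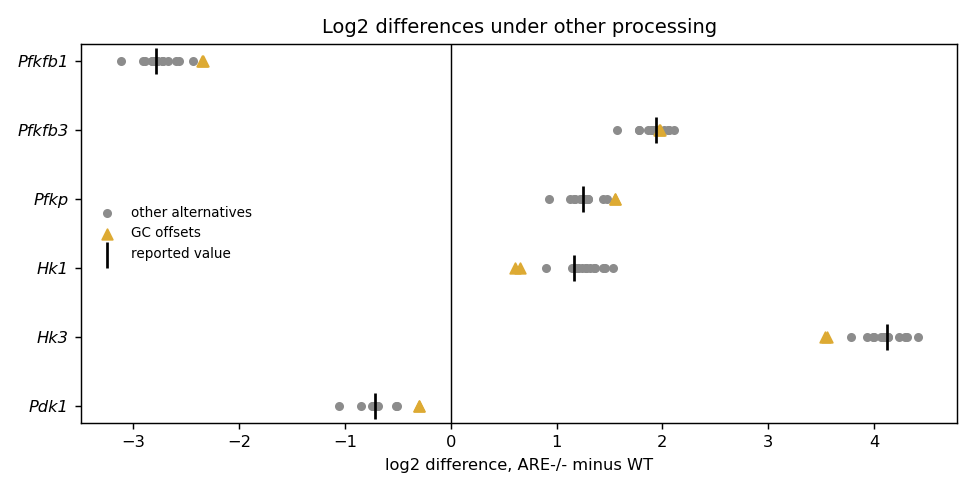
Log2 differences of the 6 isoforms as reported (black bars) and under other processing, with GC offsets as triangles and the rest as grey points. Pdk1 and Hk1 come closest to 0 with GC offsets, at -0.30 and 0.61, and no value crosses 0.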

How the data were processed

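RNA-seq of 8 mouse hearts (4 WT, 4 ARE-/-) was analysed, grouped by the labelled genotype. STAR, DESeq2 and the build mm10 are named per the submitters' processing notes, without versions. The read counter, its strand setting and the annotation are not stated there or in the labels. Per the file headers, the deposited table gives for each gene read counts and FPKM per library, a log2 fold change, p-values and adjusted p-values. Also per the file headers, its signal per group is the mean of counts that the authors had normalised before the files were deposited. The table holds no normalised counts per library, and these were computed here from the read counts and the inferred size factors. It holds only genes with an adjusted p under 0.05. A test over all genes could therefore not be refitted, and the calls are the authors' own (DESeq2). From the files, log2(normalised count + 0.5) differences with SE over the libraries, exact two-sided permutation tests, FPKM shares and profile correlations were computed. Alternatives on the listed genes used edgeR 4.0.16, limma 3.58.1 and DESeq2 1.42.0 in R 4.3.3, with p-values adjusted as if 19606 genes had been tested. Only edgeR with the authors' size factors and limma on log2 normalised counts were tested on simulated data, in which most genes did not change. The other scalings, the DESeq2 refit, the replicate block and the GC offsets were not tested in this way. All refits start from genes already selected for a difference. The named genes are the 6 listed isoforms, the listed genes of the glucose lists (some, though counted, are not reported here) and the 3 most similar profiles of each isoform. The members and lists were chosen with earlier results of these data known.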

Additional observations from a re-analysis of the deposited data

Results flagged for a closer look

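Among the isoforms and their family members, 20 group values of 4 libraries were examined for a library far from its group, and 2 were found. Chance gives about 1 in 20 such groups. Hk1 in ARE-/- replicate 1, at 1253 normalised counts, lay far below the other 3 ARE-/- libraries, at 3491 to 3708. Pdk4 in the same library, at 1633, lay below the others, at 1825 to 1852. The part of that library's differing profile in these values was not tested.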

How the results depend on the processing

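Pfkfb1, Pfkfb3, Pfkp and Hk3 kept direction and call under all 20 alternatives. Pdk1 (-0.30 and, with a replicate block added, -0.30) and Hk1 (0.65 and 0.61) did not pass with GC offsets, and the cause was not tested. Leaving out each library gave -2.89 to -2.67 for Pfkfb1, 1.78 to 2.01 for Pfkfb3, 1.17 to 1.30 for Pfkp, -0.74 to -0.68 for Pdk1, 1.16 to 1.53 for Hk1 and 4.00 to 4.29 for Hk3. The risen glucose genes numbered 24, and 14 to 23 without a library (14 without WT replicate 2, WT replicate 4 or ARE-/- replicate 3), and 13 in the DESeq2 refit, with GC offsets, with GC offsets and block, and at an adjusted p under 0.001. The fallen numbered 23, and 17 to 23 without a library, 14 with library totals, 15 with FPKM in limma, 15 at an adjusted p under 0.001, 10 with GC offsets and 9 with GC offsets and block. The single risen isoform of heart, muscle or liver type became 0 with trimmed mean scaling, the DESeq2 refit, the replicate block, GC offsets with and without block and an adjusted p under 0.001, and was 0 to 1 without a library. Esrrg reversed with GC offsets (0.0029). Of 39 other named glucose genes 11 kept their call throughout. Whether the replicate numbers pair the samples is not known here. The correlations of same-numbered deviations were 0.044, 0.045, -0.14 and 0.28, which cannot exclude a pairing. The most similar ARE-/- library had the same number for WT replicates 1 and 2, but not for 3 and 4. The replicate block gave -2.79 for Pfkfb1, 1.93 for Pfkfb3, 1.25 for Pfkp, -0.71 for Pdk1, 1.18 for Hk1, 4.13 for Hk3, with calls over listed genes going from 4292 to 3473. Every refit starts from genes listed as different, and the lowest counts are those of Hk3 in WT and Pfkfb1 in ARE-/-.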
